A study of Mus musculus with 2 samples.

Results

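The genes of the cytosolic ribosomal proteins and of their paralogs were compared between SFZ cells and costal chondrocytes (CC). Members were all probe sets whose annotation gives exactly 1 gene symbol, and that symbol is Rpl or Rps with a number and an optional ending (a, x, l or l1), *Rplp0* to *Rplp2*, or *Rpsa*. This gave 104 probe sets of 48 genes, out of 45037 probe sets that were not controls and 18193 genes named by 1 symbol. Of the 104 probe sets, 42 were for core proteins of the large subunit, 52 for core proteins of the small subunit and 10 for paralogs. A further 110 probe sets list a ribosomal protein symbol among several symbols, and these were no members. Of 83 protein coding genes in RefSeq that match the rule, 47 had a probe set of their own, 28 were only on probe sets shared with other symbols, and 8 were on none. The remaining member, *Rps4l*, is a transcribed pseudogene in RefSeq.

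SFZ cells are cells of the surface layer of articular cartilage, here from the joint ends of femur and tibia, and CC are the chondrocytes of rib cartilage. Both were from ICR mice at postnatal day 4, both were cultured in DMEM with 10% FBS, and each array received biotin-labelled cRNA made from 100 ng of total RNA. Each cell type was measured on 1 Affymetrix mouse genome array. Differences therefore have no replicate check, and the design allows no test. The labels and methods do not say how many mice gave each RNA. Values are MAS5 signals, which are linear intensities, and a ratio is SFZ over CC within 1 probe set.

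The ribosome joins a small subunit, which reads the mRNA, to a large subunit, which forms the peptide bond and releases the growing chain through its exit tunnel. Most of its proteins are encoded by a single gene that every cell uses, and their mRNAs start with a terminal oligopyrimidine (TOP) tract that ties their translation to nutrient supply through mTOR. A few have paralogs with a narrower pattern. *Rpl39l*, the paralog of the exit tunnel protein gene *Rpl39*, is known from male germ cells, and *Rpl3l*, the paralog of *Rpl3*, from skeletal and heart muscle.

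The stretches in front of *Rpl39l* and of its parent *Rpl39* are shown because this pair held the widest gap between a paralog and its parent. They are the bases in front of the first annotated start in RefSeq (GRCm38.p6), written 5′ to 3′ on the strand of the gene. Capitals mark CCGGAA, the core of the motif bound by ETS factors, and TATAAA, the TATA box. That of *Rpl39l* lies at chr16:10169978-10170196 on the plus strand and is 219 bases long, and that of *Rpl39* lies at chrX:37085223-37085472 on the minus strand and is 250 bases long.
Rpl39l: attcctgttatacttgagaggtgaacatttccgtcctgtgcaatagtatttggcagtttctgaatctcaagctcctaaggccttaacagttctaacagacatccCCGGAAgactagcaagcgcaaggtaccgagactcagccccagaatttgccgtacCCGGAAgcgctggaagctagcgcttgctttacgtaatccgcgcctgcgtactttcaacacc
Rpl39: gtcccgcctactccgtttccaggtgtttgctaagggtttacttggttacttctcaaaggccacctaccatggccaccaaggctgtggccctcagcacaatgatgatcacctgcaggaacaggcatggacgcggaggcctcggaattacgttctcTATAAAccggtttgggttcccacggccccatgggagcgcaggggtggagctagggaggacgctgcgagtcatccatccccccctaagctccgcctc
The stretch of *Rpl39l* held 2 copies of CCGGAA and 0 of TATAAA, and the stretch of *Rpl39* held 0 and 1.

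To pass as higher in SFZ cells, a probe set needed an SFZ signal over 100 and a ratio over 2, the thresholds of the study. The same limits were applied the other way round for CC. Of the 104 member probe sets, 1 was higher in SFZ cells (0.962%), that of *Rpl39l*, against 351 of all 45037 probe sets (0.779%). None was higher in CC (0 of 104), against 1612 of all (3.58%). After scaling both arrays to equal medians these counts over the whole array were 576 and 1217, and after quantile normalization 660 and 1096, while those of the members stayed at 1 and 0. The share higher in SFZ cells was thus near that of the whole array. The member nearest to passing in CC was a dim probe set of *Rpl37a*, a protein of the large subunit, with a signal of 109 in SFZ cells against 213 in CC, 1.95 times higher in CC. The next was the only probe set of *Rps27*, at 203 and 378. Of the 104 probe sets, 94 were above the background level of at least 1 array, a signal of 28.2 for SFZ cells and of 26.0 for CC. The 10 others carried no usable ratio, and for 2 genes, *Rpl3l* and *Rps16*, they were all there was.

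**Figure D1:**
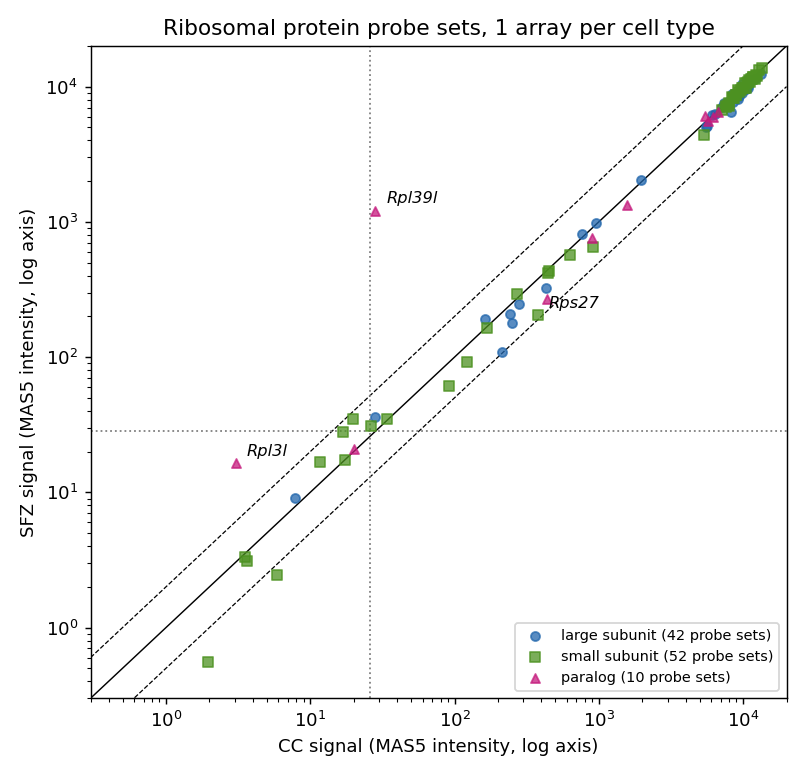
Each point is 1 member probe set, with its MAS5 signal in CC on the x axis and in SFZ cells on the y axis, both on log scales, and lines mark equal signals and ratios of 2. The points above background lie between the lines of ratio 2 except *Rpl39l*, at 1212 in SFZ cells against 28.3 in CC. Points under background on both arrays scatter more widely, such as *Rpl3l* at 16.4 and 3.06.

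The samples around these values were as follows. Lists were read on the brightest probe set of each gene, where 1.71% of the 12481 detected genes passed towards SFZ cells and 7.89% towards CC. All 9 chondrocyte markers were above background on both arrays, and 2 of them, *Matn1* and *Col9a3*, were higher in SFZ cells. Of 5 superficial zone markers *Prg4* was higher in SFZ cells while *Vcam1* and *Thbs4* were higher in CC. *Gdf5*, at 93.1 in SFZ cells against 74.2 in CC, and *Erg*, at 113 and 65.2, passed in neither direction. Of 16 skeletal muscle markers 15 were higher in CC, and their summed signal was 336 in SFZ cells against 33879 in CC. All 4 adipocyte markers with a probe set were higher in CC too, with summed signals of 1007 and 10972, as were 3 of 7 leukocyte markers, with 466 and 2084. The 2 erythroid markers with a probe set were under background on both arrays. In bulk RNA fewer cells of a type and less RNA per cell cannot be told apart, and the part of these other cells in the member signals was not tested.

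Among the paralogs, *Rpl39l* stood apart. Its protein takes the place of RPL39 in the wall of the exit tunnel. The signal of its only probe set was 1212 in SFZ cells against 28.3 in CC, a ratio of 42.8 or 5.42 on the log2 scale. The SFZ signal was 43.0 times the background level of its array, and the CC signal was 1.09 times that of its own. Among 13918 probe sets with an SFZ signal over 100 and a CC signal above background, *Rpl39l* had the largest ratio. This set leaves out probe sets whose CC signal fell under background, and *Rpl39l* was only just over that limit. Over all 25492 detected probe sets the largest log2 ratio was 7.86, so its rank depends on the filter. Because the CC signal lay so near background, the size of the ratio depends on how low signals are treated. With 64 added to both signals it was 13.8, still past the threshold.

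The parent differed little as deposited. *Rpl39* had signals of 190 in SFZ cells against 162 in CC, a ratio of 1.17, on the probe set named for it alone, and 9900 and 10128 on a probe set shared with other symbols, a ratio of 0.977. The difference between the log2 ratios of *Rpl39l* and *Rpl39* was 5.19. Of 16 germ cell markers with a probe set, 14 were under background on both arrays and none passed in either direction. The highest 2 were *Stra8*, at 23.5 in SFZ cells against 40.1 in CC, and *Prm2*, at 27.3 and 32.3, so that all 16 were under background in SFZ cells. Whether germ cells had a part in the signal of *Rpl39l* was not tested.

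The 6 protein coding genes nearest to *Rpl39l* that have a probe set of their own were read on the same arrays. As deposited none of them passed, against 1.71% of all detected genes towards SFZ cells and 7.89% towards CC. The one nearest to the threshold was *Emp2*, the gene for an epithelial membrane protein, with signals of 751 in SFZ cells against 387 in CC, a ratio of 1.94. Its log2 ratio was 0.96, and scaling to equal medians adds 0.19, which takes *Emp2* past a ratio of 2. *Usp7*, a ubiquitin protease gene, was at 788 and 830, and *1810013L24Rik* was at 465 and 647. Both were slightly brighter in CC as deposited, and the other 3 (*Grin2a*, *Atf7ip2* and *Tekt5*) were under background on both arrays.

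*Rps27l* encodes a paralog of the small subunit protein RPS27 and is a known target of *Trp53*. Its 3 probe sets had signals of 5545, 6454 and 5932 in SFZ cells and 5756, 6712 and 6190 in CC, with log2 ratios from -0.06 to -0.05. Within each of them the SFZ signal was slightly lower as deposited. The ratio of the brightest was 0.13 on the log2 scale after scaling to equal medians, so its sign is not settled. *Rps27* itself, at 203 in SFZ cells against 378 in CC, had the lowest log2 ratio of all core genes, -0.90. A probe set that lists *Rps27* with other symbols gave 6305 and 6526, a log2 ratio of -0.05. The gap between paralog and parent was therefore 0.84 on the first probe set and -0.01 on the shared one. Of 18 detected *Trp53* target genes, 1 was higher in SFZ cells (*Perp*) and 3 were higher in CC, against 1.71% and 7.89% of all detected genes. Those 3 were *Pmaip1*, *Eda2r* and *Plk2*, the last at 365 and 1140. On its brightest probe set the cell cycle inhibitor gene *Cdkn1a* did not pass, with 1260 in SFZ cells against 2384 in CC.

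*Rpl22l1* was the only other detected paralog with a brighter SFZ signal as deposited. The protein and its parent RPL22 bind RNA on the outer face of the large subunit, and the pair is known from T cell development. *Rpl22l1* had signals of 6052 in SFZ cells against 5420 in CC, a log2 ratio of 0.16. The 3 probe sets of *Rpl22* gave 7084, 976 and 9640 in SFZ cells and 7157, 963 and 10336 in CC. Their log2 ratios ran from -0.10 to 0.02, and the difference of paralog and parent was 0.26 on the brightest probe set of each. As deposited all ratios of this pair were within 1.2-fold.

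*Rpl7l1*, the paralog of *Rpl7*, was brighter in CC on both of its detected probe sets, with 755 and 1334 in SFZ cells and 900 and 1569 in CC, log2 ratios of -0.25 and -0.23. *Rpl7*, a large subunit protein, had 8471, 9018 and 8822 in SFZ cells against 9343, 9783 and 8342 in CC. Its own probe sets thus disagreed in sign, and the difference of the pair was -0.12. That difference was 0.02 after quantile normalization, so its direction is not settled. *Rps4l* had signals of 271 and 438, a log2 ratio of -0.70, and its parent *Rps4x*, a small subunit protein encoded on the X chromosome, had 9839 and 10179, a log2 ratio of -0.05. No ratio of these pairs reached 2 in either direction.

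For *Rpl3l* no ratio can be given. Its only probe set read 16.4 in SFZ cells against 3.06 in CC, and both were under background. Muscle markers were high in CC, such as *Myh3*, an embryonic myosin heavy chain gene, at 11.0 and 3881. The parent *Rpl3* had no probe set of its own, and the brighter of its shared ones gave 9132 and 9360. *Rpl10* was likewise only on shared probe sets, at 9069 and 9368 in SFZ cells and 9198 and 9989 in CC, and its paralog *Rpl10l* had no probe set.

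**Figure D2:**
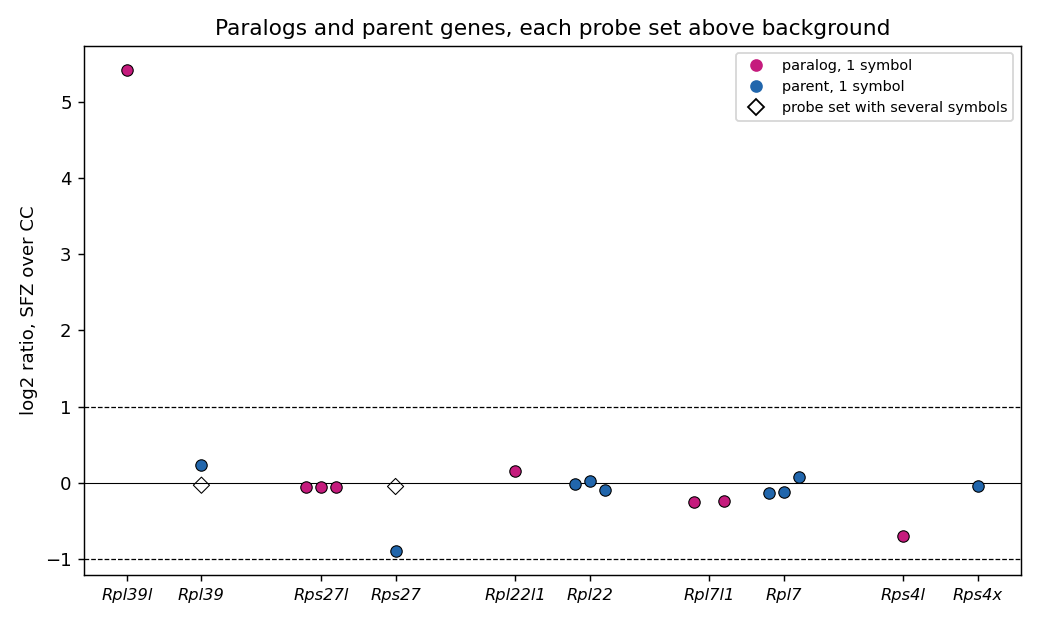
Log2 of the SFZ/CC ratio for each paralog and its parent, 1 point per probe set, with probe sets of 1 symbol and shared probe sets marked differently. *Rpl39l* lies at 5.42, while all other points above background lie between -0.90 and 0.23.

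The core genes differed little between the cell types. Of 42 core genes 41 were detected. As deposited none passed in either direction, and 38 had ratios within 1.2-fold on the brightest probe set. The median log2 ratio of the 41 was -0.07, with 31 below 0 and 10 above, against -0.21 over all 12481 detected genes. Those are mostly dimmer, with a median SFZ signal of 183 against 9625 for the core genes. The 279 probe sets over 5000 that list no ribosomal protein symbol had a median log2 ratio of -0.05. The 2703 such probe sets over 1000 had one of -0.14. The gap to all detected genes is therefore not particular to core genes. Large subunit genes had a median of -0.08 over 22 genes and small subunit genes one of -0.05 over 19. The sign of these small values depends on how the arrays are scaled. Scaling to equal medians adds 0.19 to every log2 ratio, so that any value between -0.19 and 0 turns sign. The medians are over all probe sets, 28.1 in SFZ cells and 32.0 in CC. They lie near the background levels of 28.2 and 26.0, so this scaling rests on dim signals. After scaling to equal medians 37 of the 41 were above 0, with a median of 0.12. After quantile normalization 15 were above 0 and 24 below, with a median of -0.02. Relative to the median of all detected genes, the 46 detected member genes lay 0.14 higher as deposited and after median scaling, and 0.05 lower (-0.05) after quantile normalization.

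**Figure D3:**
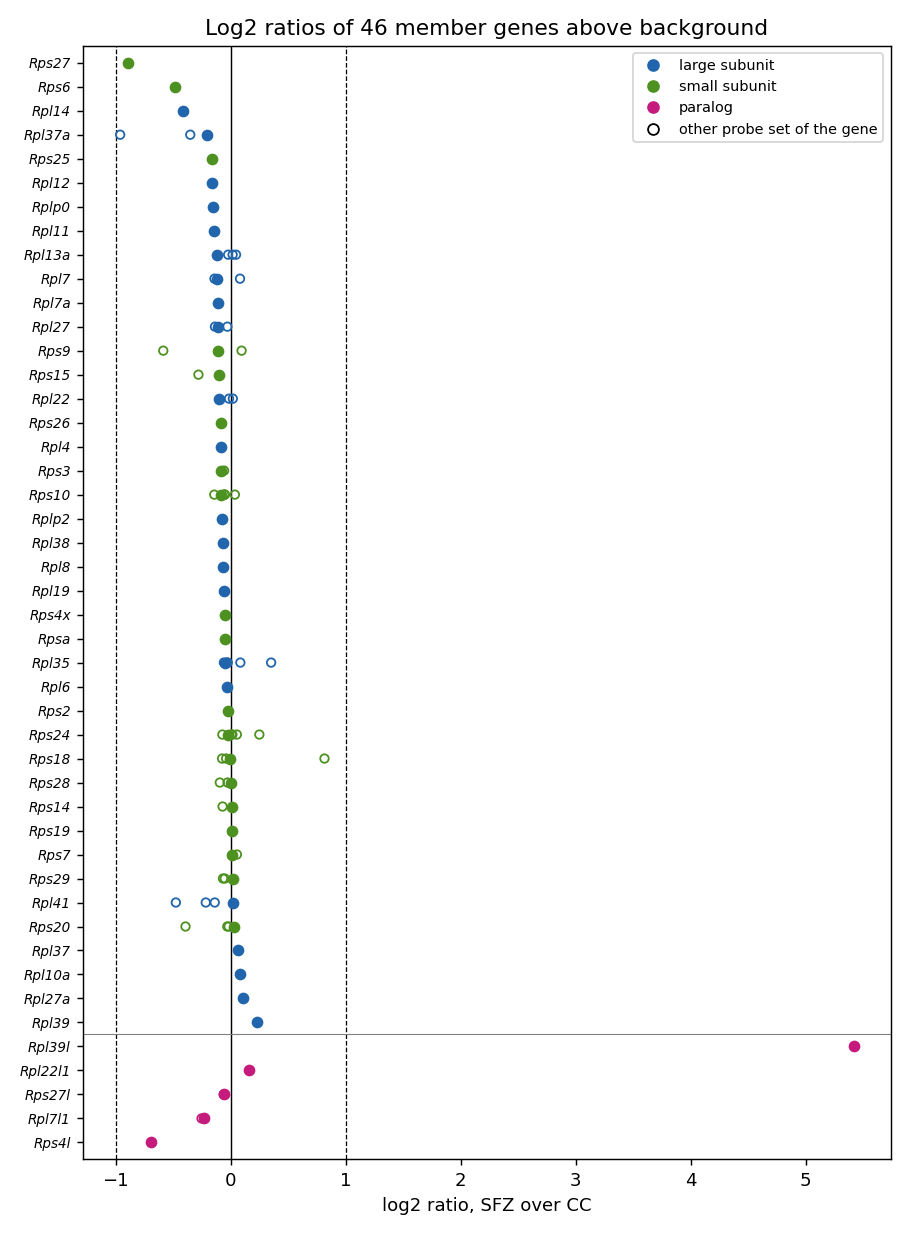
Log2 of the SFZ/CC ratio for each member gene, with its probe sets as points, ordered by the brightest probe set. Of the 46 detected genes 41 lie within 1.2-fold, and the widest departures other than *Rpl39l* belong to dim probe sets.

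At the lower end of the core genes after *Rps27* came *Rps6*, *Rpl14* and *Rpl37a*. *Rps6* encodes the small subunit protein that S6 kinase phosphorylates, and its signal was 651 in SFZ cells against 912 in CC, 1.40 times higher in CC. *Rpl14*, a large subunit protein gene, was at 325 and 433, 1.33 times higher in CC. For *Rpl37a*, which encodes a zinc finger protein of the large subunit, 3 probe sets were detected and all were brighter in CC. Its bright ones read 6473 and 8053 in SFZ cells against 8262 and 9285 in CC, with log2 ratios of -0.35 and -0.21, and its dim one, given above, had -0.96. Then followed *Rps25* at -0.17, *Rpl12* and *Rplp0* at -0.16, *Rpl11* at -0.14, and *Rpl13a* and *Rpl7* at -0.12. *Rps25* is a small subunit protein needed by several viral internal ribosome entry sites, and *Rpl13a* a large subunit protein that is often used as a reference gene. The 4 probe sets of *Rpl13a* had log2 ratios from -0.12 to 0.05.

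At the upper end, *Rpl39* had the largest ratio. It was followed by *Rpl27a*, mutated in the mouse line Sooty foot ataxia, with signals of 819 in SFZ cells against 761 in CC, a log2 ratio of 0.11. *Rpl10a*, which encodes a large subunit protein beside the exit site for tRNA, was at 11342 and 10753, or 0.08. *Rpl37* was at 2046 and 1961, or 0.06, and *Rps20*, *Rpl41*, *Rps29*, *Rps7*, *Rps19* and *Rps14* were between 0.01 and 0.03. None of these 10 reached 1.2-fold.

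How far the ratios scatter without a difference between genes can be read in part from genes with several probe sets. For 17 genes with at least 2 probe sets of a mean signal over 1000, 50 probe sets in all, the pooled SD of the log2 ratio within a gene was 0.064, and the widest range within a gene was 0.22. This spread is between bright probe sets on the same pair of arrays and holds no biological replicate. Probe sets of 1 gene read the same RNA and are no independent readings, so the full scatter may be wider. Dimmer probe sets of the same genes scattered more. *Rps9* gave a log2 ratio of -0.11 at 7271 and 7828, and -0.59 at 60.9 and 91.4. *Rps20* gave 0.03 at 13243 and 12994, and -0.39 at 92.4 and 121. For *Rps18* the bright probe sets had ratios from -0.08 to -0.01, while one of its dim ones read 35.0 in SFZ cells against 19.9 in CC, the latter under background.

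Beyond what the rule used, the members shared bright signals, which are a property of the probe set and no measure of transcript level between genes. A mean signal over 5000 was found for 67 of the 104 (64.4%), against 0.941% of all probe sets, and of the 424 probe sets over 5000 on the array 145 (34.2%) list a ribosomal protein symbol alone or with others. The 70 members over 1000 had a median log2 ratio of -0.05 with an SD of 0.083, and 68 of them (97.1%) were within 1.2-fold. The 2703 other probe sets over 1000 that list no ribosomal protein symbol had an SD of 0.48, and 48.6% were within 1.2-fold. Over 5000 the SDs were 0.076 for 67 members and 0.34 for 279 others, of which 68.8% were within 1.2-fold. The 21 detected core probe sets of up to 1000 had an SD of 0.42 and ran from -0.96 to 0.82. The narrow spread of the members thus went with bright signals in part, and whether bright signals approached the ceiling of the scanner was not tested. Among probe sets over 1000, 1.75% passed towards SFZ cells and 3.36% towards CC, against 0 of the 70 members in each direction. The mean signal is the geometric mean of both arrays, and this cut leaves out *Rpl39l*, the only member that passed.

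**Figure D4:**
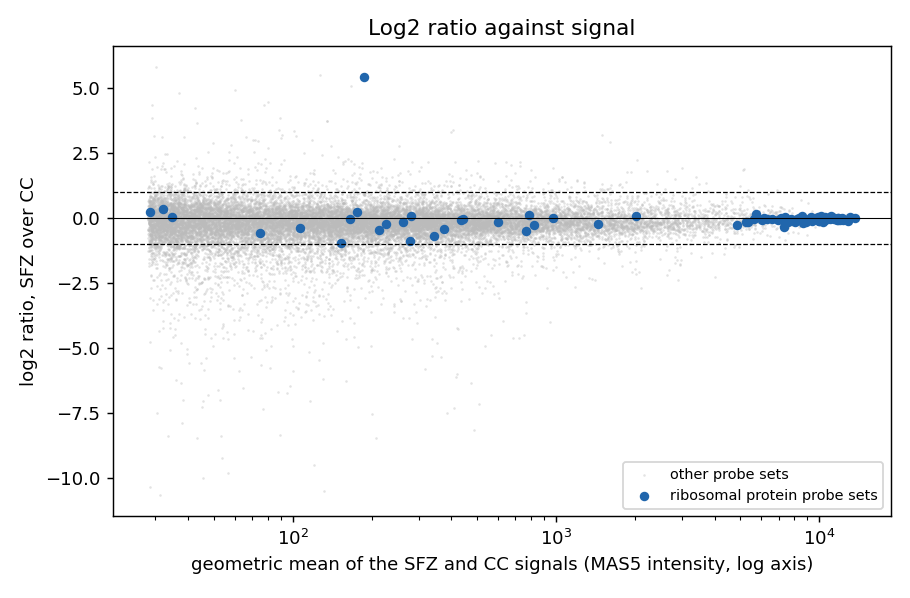
Log2 of the SFZ/CC ratio on the y axis against the mean signal of both arrays on a log x axis, for members and for all other probe sets. Members over 1000 lie in a band from -0.35 to 0.16, while the other probe sets at those signals spread more widely.

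Groups of core genes with a shared place or role were read side by side. As no core gene passed, no group could hold a member past the thresholds. In the stalk, which recruits the translation factors, *Rplp0* had signals of 9779 in SFZ cells against 10891 in CC, *Rplp2* had 11675 and 12335, and *Rpl12* at its base had 249 and 278. As deposited all 3 were brighter in CC, with log2 ratios from -0.16 to -0.08, and all 3 turn sign under scaling to equal medians. *Rpl11*, which joins the large subunit with a ribosomal RNA and can bind *Mdm2*, was at 7699 and 8492, a log2 ratio of -0.14. The 5 detected genes of the exit tunnel and its rim, namely *Rpl22*, *Rpl4*, *Rpl19*, *Rpl35* and *Rpl39*, had a median of -0.06.

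Genes mutated in Diamond-Blackfan anaemia, a failure of red cell formation, had 11 detected members with a median of -0.05. *Rps19*, the gene most often mutated there, was at 8389 and 8327, a log2 ratio of 0.01. *Rps24* was at -0.02, and *Rps28* had nearly equal signals of 11721 and 11723. Of the 6 detected genes with known skeletal or pigment phenotypes in mice the median was 0.01. *Rpl38*, whose loss in Tail-short mice alters the axial skeleton through Hox mRNA translation, was at 11447 in SFZ cells against 11978 in CC, a log2 ratio of -0.07. *Rpsa*, a small subunit protein that is also described as a laminin receptor, was at 9735 and 10064, a log2 ratio of -0.05. Outside the rule for members, *Fau*, which encodes a small subunit protein fused to a ubiquitin-like one, was at 7636 and 8203, and *Rps3a1* was at 12393 and 12824.

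The rest of the translation machinery was read from lists of its own. Of 76 detected mitochondrial ribosomal protein genes none passed, the median as deposited was -0.23, near the -0.21 of all detected genes, and the SD was 0.25. After scaling to equal medians this median was -0.05, and after quantile normalization it was -0.01, against -0.02 for the core genes. The lowest was *Mrpl18*, at 475 in SFZ cells against 840 in CC, and the highest *Mrps18b*, at 692 and 576. Of 16 detected elongation factor and other TOP mRNA genes none passed either, with a median of -0.16. Here *Npm1*, the nucleophosmin gene, was highest at 10123 and 9337, and *Hnrnpa1*, the gene of an RNA-binding splicing factor, lowest at 786 and 1203. Of 43 detected genes of ribosome assembly none passed, with a median of -0.08. *Rrs1*, needed for assembly of the large subunit, had the largest ratio, at 2370 in SFZ cells against 1569 in CC, and *Sbds*, the gene of Shwachman-Diamond syndrome, the smallest.

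Of 11 detected genes listed for control of TOP mRNA translation, *Myc* family genes included, none passed, with a median of -0.20. *Mtor*, the kinase gene, was at 321 in SFZ cells against 381 in CC. *Larp1*, which binds the TOP tract, was at 916 and 878, and *Eif4ebp1*, an inhibitor of cap-dependent translation, at 4108 and 3449. *Myc*, a transcription factor that drives ribosomal protein genes, was at 863 and 878. These 4 were among the 7 of the 11 within 1.2-fold, and the other 4 were all brighter in CC as deposited, such as *Rps6ka3*, a kinase gene, at 514 and 747. *Mycn*, also among the other 4, was under background in SFZ cells, at 26.6, and was at 61.5 in CC.

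**Figure D5:**
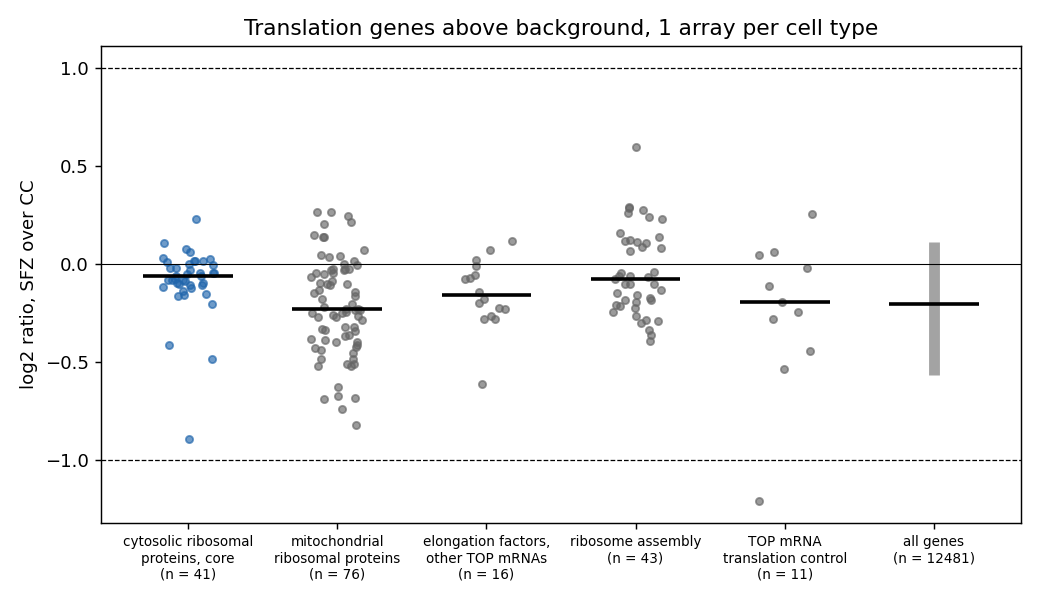
Log2 of the SFZ/CC ratio for the detected core genes and the mitochondrial, TOP mRNA, ribosome assembly and TOP control lists. Each point is 1 gene, the median of each list is marked, and all detected genes are drawn as a bar. As deposited, the core genes have a median of -0.07 and the mitochondrial ribosomal proteins one of -0.23, near the -0.21 of all detected genes. After quantile normalization, which is not drawn, the mitochondrial median is -0.01.

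The sequences in front of the member genes were searched over the 250 bases before each start, and no base after it. RefSeq holds such a window for 42 of the 48 genes, 50 windows in all, as some genes have several starts. CCGGAA was found on either strand in 21 of the 50 (42.0%), those of *Rpl39l* among them, against 12.0% of all 32851 windows and 15.0% of the 21263 windows of protein coding genes. CCAAT was found in 28.0% of member windows and 33.8% of all, and TATAAA, as in front of *Rpl39*, in 8% and 12.4%. These are matches of letters and say nothing of binding. Of the 21 windows with CCGGAA, 19 belonged to core genes. No core gene passed, with or without CCGGAA, and whether CCGGAA goes with a ratio was not tested.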

How the data were processed

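The authors deposited MAS5 signals, linear intensities per probe set, for 1 array per cell type. The submitters' processing notes name MAS5. Neither its version nor its scaling target is given in the sources used here. Signals were used as deposited. Symbols came from GEO's platform annotation. All 48 member genes matched RefSeq (GRCm38.p6) by Entrez identifier with the same symbol. The array names no genome build.

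A background level was set per array at the 95th percentile of signals from 87 probe sets for chemosensory receptors, and a probe set above it on at least 1 array was called detected. Each gene was represented by its brightest probe set (mean of log2 signals), also for counts over lists. A member gene passed where any of its probe sets did. The log2 ratio was taken without a pseudocount. Named genes were all paralogs and parents, members past the thresholds, the 10 largest and 10 smallest ratios among core genes, *Rpsa* and the stalk genes, and up to 4 genes of each other list. *Gdf5*, *Myh3*, *Cdkn1a*, *Mtor*, *Larp1*, *Myc*, *Rpl4*, *Rpl19*, *Rpl35*, *Rpl38*, *Rps9*, *Rps18*, *Rps24*, *Rps28* and the dim probe sets were named after their values were seen. The members and lists were chosen with earlier results of these data known. With 1 array per group no fold has an error, and the number of arrays limits the precision. Counting was tested on simulated data. The alternatives tried were quantile normalization, scaling to equal medians, adding 64 to both signals, raising low signals to background, ratios over 1.5 and 3, no minimum signal, no _x_at or _s_at probe sets, and other rules for combining probe sets. Sequences are from RefSeq. Python 3.11.15, numpy 2.4.6, pandas 2.3.3 and matplotlib 3.10.9 were used.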

Additional observations from a re-analysis of the deposited data

How the results depend on the processing

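Of 150 values recomputed under alternatives, 144 stayed within the limits set for a change, 6 moved and 0 reversed. Part of the 144 could not move. Scaling to equal medians cancels in a difference of paralog and parent, and a gene with 1 probe set keeps its value in a median over probe sets. Raising low signals to background left every value as it was. The 144 are therefore no measure of stability. A reversal could be counted only for a log2 value beyond 1 as deposited, which only *Rpl39l* and its difference from *Rpl39* had. Small values that changed sign counted as staying. The median of the member genes, for example, was -0.06 as deposited and 0.12 after scaling to equal medians. The 0 therefore says nothing about the direction of small ratios. The number of members higher in SFZ cells was 1 under every alternative run. At a ratio over 1.5, 3 member probe sets of 3 genes (*Rps27*, *Rpl37a* and *Rps4l*) were higher in CC, as a lower threshold lets more pass. *Rpl37a* passed there on its dim probe set alone. The share of all probe sets passing at this ratio was not counted. Without a minimum signal, 6 of 94 detected member probe sets lay beyond 1.5-fold in either direction, against 8134 of all 25492 detected ones. With 64 added to both signals the difference of *Rpl39l* and *Rpl39* was 3.62, as the added value weighs most on the low CC signal of *Rpl39l*. With probe sets of several symbols included, an alternative chosen after seeing the data, the difference of *Rps27l* and *Rps27* was -0.0066, since a brighter probe set then stood for *Rps27*. No paired analysis was possible because there was 1 array per group. With 1 array each, no array could be left out, and signals near 28.2 in SFZ cells or 26.0 in CC cannot be told from background.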
